A study of Mus musculus with 16 samples.

Results

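The change of the mechanically loaded wound from day 6 to day 14 was taken from the 4 arrays labelled stressed at day 14 set against the 4 labelled stressed at day 6, which are 8 of the 16 arrays of the series. It was described over the 34958 of 45101 probe sets that carry a single gene symbol in the platform's annotation, which represent 18194 genes. The tissue was dorsal incisional wound of wild-type C57BL/6 mice, all labelled female, from a mechanical load model of hypertrophic scarring. The stressed wounds of day 6 had been loaded for 48 hours and those of day 14 for 10 days, so time after wounding and duration of loading cannot be told apart. The unstressed wounds of the same strain and days, 4 arrays each, serve here only to set the loaded course beside the course without load. The design text names 4 mice per group and time point, and the age of the mice is not given in the sources used here. Total RNA of whole wound tissue was hybridized, so fewer cells of a type and less RNA per cell cannot be told apart. The values are log signals, read as log2 and as centred per probe set before deposit. A value of 0 is therefore no absolute level, no gene's presence could be judged, and every difference below is day 14 minus day 6 on the log2 scale.

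A closing skin wound passes from inflammation, led by neutrophils and then monocytes and macrophages, to the formation of granulation tissue by fibroblasts and new vessels, and then to remodelling of the collagen matrix. Tension on the wound edges is known to keep fibroblasts contractile and to enlarge the scar. Mouse back skin also holds hair follicles, which pass through phases of growth and rest and make the keratins of the hair shaft only while they grow. Beneath its fat layer lies a thin sheet of skeletal muscle, the panniculus carnosus, which an incision through the full skin cuts as well.

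The promoters of genes at both extremes of the loaded course, and of the interferon response, are shown because the members of these groups moved together. Each line gives the 150 bases that end just before the transcription start in RefSeq (build GRCm38.p6), 5′ to 3′ on the gene's strand, with the matched motif in capitals. Krtap8-1, a keratin-associated protein of the hair shaft, lies on the minus strand at chr16:89487953-89488102. Myh4, a fast myosin heavy chain of skeletal muscle, is read on the plus strand at chr11:67237662-67237811. Ifit1, an antiviral protein induced by interferon, is on the plus strand at chr19:34640739-34640888, and Gbp3, a guanylate-binding protein, on the plus strand at chr3:142559894-142560043. RefSeq gives a second start for Gbp3, whose 150 bases at chr3:142560206-142560355 hold 0 matches of the motif.
Krtap8-1: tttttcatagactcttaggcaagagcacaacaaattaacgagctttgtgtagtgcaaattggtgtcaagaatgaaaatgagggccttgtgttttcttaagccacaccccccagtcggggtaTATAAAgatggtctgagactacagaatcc
Myh4: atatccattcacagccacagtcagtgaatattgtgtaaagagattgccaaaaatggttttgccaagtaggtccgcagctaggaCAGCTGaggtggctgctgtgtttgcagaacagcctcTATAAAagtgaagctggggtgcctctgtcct
Ifit1: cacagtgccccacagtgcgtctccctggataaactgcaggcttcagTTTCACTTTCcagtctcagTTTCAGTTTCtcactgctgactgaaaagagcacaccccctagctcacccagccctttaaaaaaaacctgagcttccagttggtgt
Gbp3: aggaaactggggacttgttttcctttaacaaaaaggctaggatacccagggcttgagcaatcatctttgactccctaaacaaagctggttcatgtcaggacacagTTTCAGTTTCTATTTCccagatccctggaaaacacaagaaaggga

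The capitals mark TATAAA, the TATA box, whose match starts 29 bases before the start of Krtap8-1 and 31 bases before that of Myh4. They also mark CAGCTG, an E-box of the kind bound by myogenic factors, 67 bases before the start of Myh4. The interferon-stimulated response element, searched as TTTC and TTTC set 2 bases apart, starts 104 and 85 bases before the start of Ifit1 and 45 and 39 bases before that of Gbp3, where the 2 matches overlap. Both strands of the 250 bases before each start were searched in 27025 genes with a promoter entry. TATAAA stood in 17 of the 24 hair shaft and follicle markers with an entry (70.8%), against 14.3% of all genes. CAGCTG stood in 15 of 27 mature skeletal muscle markers (55.6%) and 5 of 14 markers of regenerating muscle (35.7%), against 14.7% of all genes, while TATAAA stood in 6 of 27 (22.2%) and 2 of 14 (14.3%). The interferon element stood in 9 of 16 interferon response genes (56.2%), against 3.46% of all genes. The cyclic AMP response element TGACGTCA stood in 3 of 18 immediate early genes (16.7%), Btg2, Dusp1 and Maff, against 1.77% of all genes. These matches describe the windows only, and no binding was measured.

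The 8 stressed arrays differed in ways other than day. The 4 arrays of day 6 and replicates 1 and 2 of day 14 had low signal of Xist, the RNA of the inactive X chromosome, and high signal of the 3 Y-linked genes measured, which goes against the label female. Replicates 3 and 4 of day 14 had Xist at 6.20 and 6.30, against -0.53 to 0.81 on the arrays with low signal, so the class of the mouse and the day overlap in part. The 24 probe sets for the poly-A control RNAs (dap, lys, phe and thr, which the standard protocol adds to a sample before labelling) had means of 0.21 to 2.10 on the stressed arrays of day 6 and -4.77 to -4.70 on those of day 14. The 3 probe sets for 18S ribosomal RNA had means of 0.96 to 3.51 at day 6 and -0.89 to -0.46 at day 14, while the 18 hybridization controls differed by 0.41. The unstressed arrays were split by day in the same way, from -4.88 to -4.67 in the poly-A controls at day 14 and from -2.20 to 2.49 at day 6. How the RNA of each day was labelled and the day itself therefore cannot be told apart in the course of either wound, whereas the difference between the courses has both days on each side. Replicate 2 of day 6 stood apart, with a 3′ over 5′ difference of 1.60 for actin and 1.42 for Gapdh against at most 0.01 on the other arrays of its group. Among the unstressed arrays, day 14 replicate 4 had 1.35 for Gapdh, against -0.18 to 0.09 on the others of its group, and 0.35 for actin.

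**Figure D1:**
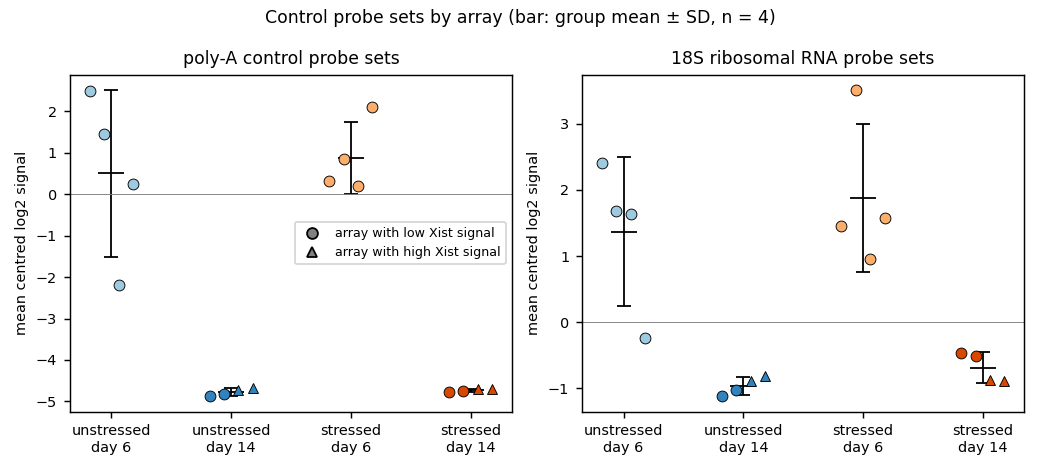
Mean centred log2 signal of the 24 poly-A control probe sets (left) and of the 3 probe sets of 18S ribosomal RNA (right) on each of the 16 arrays, by group, with the group mean ± SD (n = 4); triangles are arrays with high Xist signal. The 4 stressed arrays of day 14 lie between -4.77 and -4.70 in the poly-A controls and the 4 of day 6 between 0.21 and 2.10.

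In limma's test with Benjamini-Hochberg adjustment and a threshold of 0.05, 10604 of 18194 genes (58.3%) changed in the loaded wound, 4363 (24.0%) higher and 6241 (34.3%) lower at day 14. The median over all genes was -0.14. At least 2-fold changes numbered 832 (4.57%) higher and 2467 (13.6%) lower. The 4 and 4 arrays did not overlap in 9005 genes (49.5%), 20.4% higher and 29.1% lower. Quantile normalization of the arrays gave 4671 higher and 4247 lower and array medians set to 0 gave 5093 higher and 5530 lower, so the split by direction rests on the scaling. Among the 5944 called genes with more than 1 probe set, all probe sets lay in 1 direction in 2597 (43.7%), and 1232 (20.7%) had probe sets past the threshold in both directions. The gene lists below are described by counts and medians against these shares, and a share near 58.3% called is no result about a list. Leaving out replicate 2 of day 6 gave 10731 calls and moved no list median by more than 0.30.

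The largest rises of the loaded course were those of the hair shaft. Of 33 measured hair shaft and follicle markers, 26 rose and 2 fell, with a median of 3.75. Krtap8-1 stood at -2.35, -2.35, -2.84 and -0.63 on the arrays of day 6 and at 2.67, 4.67, 5.80 and 6.68 on those of day 14. The day 6 arrays all lay below the day 14 arrays, and the highest values belonged to the 2 day 14 arrays with high Xist. The rise of Krtap8-1 was 6.99 (SE 0.88, adjusted p = 3.2e-05), with group means of -2.04 ± 0.97 and 4.95 ± 1.73 (SD, n = 4).

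Krt33a, a keratin of the hair cortex, rose by 6.42 (SE 1.09, adjusted p = 0.00026), with values of -1.19, -1.02, -1.50 and -0.00 at day 6 and 3.10, 4.42, 6.62 and 7.81 at day 14. All of the 12 genes with the largest rises were hair keratins or keratin-associated proteins: Krtap8-1, Krtap16-3 (6.51), Krt33a, Krtap15 (6.20), Krtap11-1 (6.19), Krtap6-5 (6.07), Krtap19-5 (6.01), Krtap22-2 (5.82), Krtap4-16 (5.75), Krtap4-1 (5.68), Krtap1-5 (5.66) and Krtap19-9b (5.61). Day 14 replicate 1 was the lowest of its group in each, for example 0.92 for Krtap15 against 5.11, 6.74 and 8.36 on the other arrays.

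Genes of other follicle layers rose with the cortex. S100a3, a calcium-binding protein of the cuticle, rose by 5.13 and Tchh, trichohyalin of the inner root sheath, by 4.34 (adjusted p = 0.00014). The hair keratin Krt86 rose by 5.48. Prr9, chosen after its values were seen, rose by 5.46. Among the regulators, Hoxc13, which drives hair keratin genes, rose by 1.28 (adjusted p = 0.048) and Msx2 by 1.55, whereas Lhx2 fell by 1.38 and Gata3 by 1.37. Foxn1 differed by 0.52 (adjusted p = 0.54) and Shh, a signal of the growing follicle, by 0.27 (adjusted p = 0.64). The median of the list was 2.40 with only the low-Xist arrays of day 14 (22 rose and 3 fell) and 4.81 with only the high-Xist arrays (30 rose). The part of the class in the size of this rise was not tested. In unstressed wounds the same list had a median of 5.14, with 29 genes higher and 0 lower, and the difference between the courses passed for no member over all 16 arrays. Over the 12 low-Xist arrays, 2 of them in each day 14 group, it passed for 6 of the 33. All 6 were lower in the loaded course, where 4.93% of all genes were lower.

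Melanocyte genes, whose products pigment the growing hair, had a median of 1.28, with 30.0% called against 58.3% of all genes. Of 10 measured, 3 rose, namely Trpm1 (2.20), Oca2 (1.66) and Slc45a2 (1.16), and 0 fell, against 24.0% and 34.3% of all genes. Tyrp1, an enzyme of pigment synthesis, differed by 1.55 (adjusted p = 0.057), with 0.66, -0.42, 1.95 and 2.62 on the arrays of day 14 and overlapping groups. The list median was 0.26 with the low-Xist arrays of day 14 (3 rose and 2 fell) and 2.19 with the high-Xist arrays (9 rose and 0 fell). With the Xist class as a term 2 rose and 1 fell. Oca2 did not pass without day 14 replicate 3 (1.49) or replicate 4 (1.24), nor with the Xist class as a term (1.25). Tyrp1 passed with the high-Xist arrays of day 14 (2.64) and without day 14 replicate 2 (2.10).

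**Figure D2:**
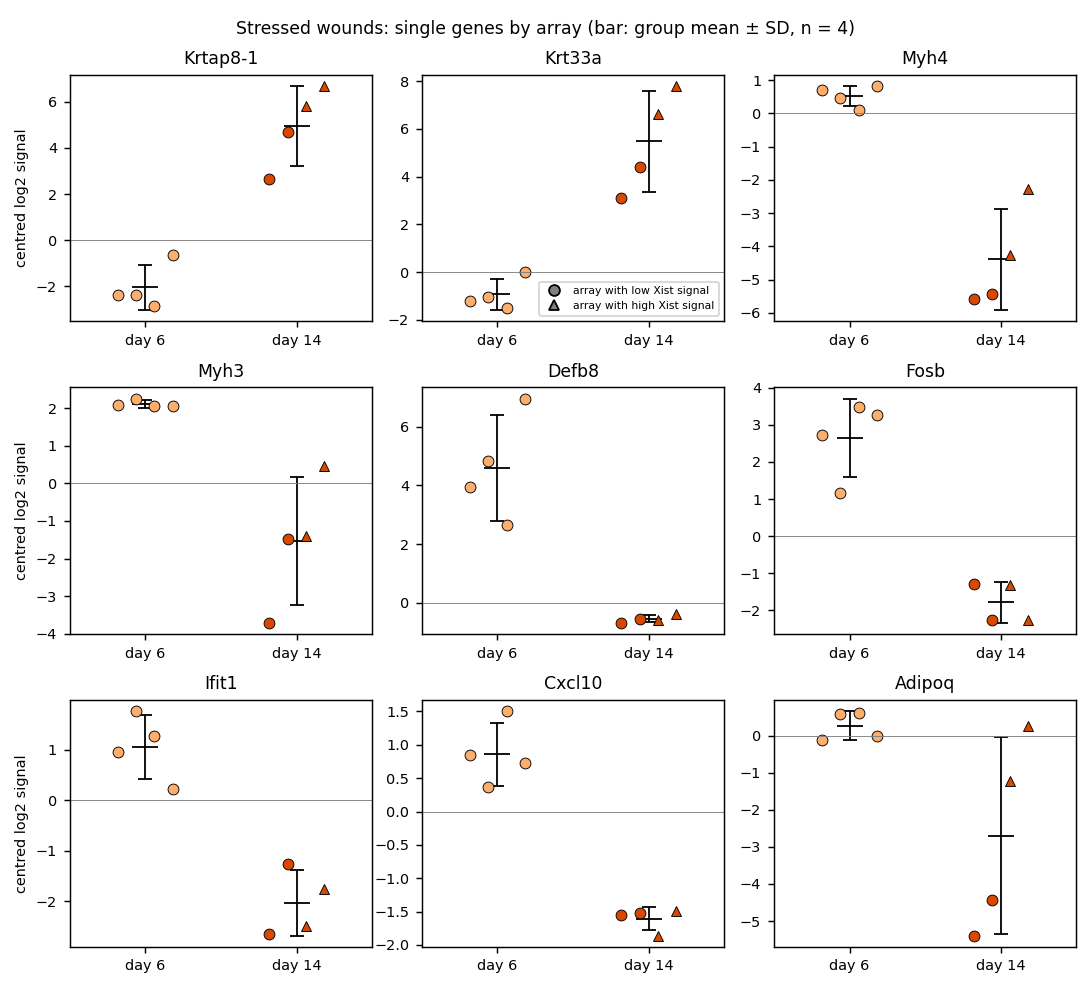
Centred log2 signal of 9 genes on each of the 8 stressed arrays, day 6 and day 14, with the group mean ± SD (n = 4); triangles are arrays with high Xist signal. Krtap8-1 and Krt33a lie higher at day 14 on all 4 arrays, and the other genes lie lower there, except that the highest day 14 array of Adipoq, at 0.25, reaches the range of day 6.

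The largest falls were mostly those of skeletal muscle. Of 36 measured markers of mature muscle, 32 fell and 0 rose, and 31 fell at least 2-fold, with a median of -2.73. Myh4 stood at 0.70, 0.47, 0.11 and 0.81 at day 6 and at -5.58, -5.43, -4.27 and -2.29 at day 14. No day 14 array reached the day 6 range, and Myh4 fell by 4.92 (SE 1.14, adjusted p = 0.0022). Its other probe set differed by -0.91. Ckmt2, the mitochondrial creatine kinase of muscle, fell by 3.42, with -3.86, -3.98, -3.77 and -1.25 at day 14 against -0.01 to 0.46 at day 6. Day 14 replicate 4 was the highest of its group in both genes.

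The falling muscle genes included contractile, metabolic and membrane proteins. Among thick filament and sarcomere proteins, Mybpc2 (myosin-binding protein C) fell by 4.34, Myom2 (myomesin) fell by 3.98 and Ttn (titin) fell by 3.22, with 5 of 6 probe sets of Ttn in this direction. The slow-fibre troponin Tnnt1 differed by -3.98, the muscle phosphoglycerate mutase Pgam2 by -3.92 and the voltage sensor Cacna1s by -3.06, all past the threshold. Trim63, a ubiquitin ligase of muscle wasting, fell by 2.97. The markers that did not pass included Ckm, the cytosolic creatine kinase, at -0.25 (adjusted p = 0.52). By array, the list median was -0.03 to 0.47 at day 6 and -4.40, -2.34, -2.56 and -0.31 at day 14.

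In unstressed wounds the same 36 genes had a median of -0.07, with 2 higher and 7 lower, against -0.09 over all genes there. The slow-fibre troponins Tnnt1, Tnni1 and Tnnc1 differed by -3.98, -3.28 and -4.43 there, beside -3.98, -2.72 and -2.88 in loaded wounds. The difference between the courses passed for 0 of the 36 genes over all 16 arrays (0.0385% of all genes). With only the 12 low-Xist arrays, 2 of them in each day 14 group, it passed for 28 of the 36. All 28 were lower in the loaded course, where 7.79% of all genes passed, 2.86% higher and 4.93% lower. The day 14 arrays left out had list medians of -2.56 and -0.31 in stressed and -1.10 and 0.58 in unstressed wounds. For Myh4 the difference between the courses was -3.96 (adjusted p = 0.41) over all arrays and -6.82 (adjusted p = 3e-05) over the low-Xist arrays. Unstressed day 14 replicate 3 had -5.45 for Myh4 against 0.68 to 1.29 on the other arrays of its group. The amount of muscle taken with each wound was not measured.

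Genes of forming and regenerating muscle fell in both wounds. Of 19 measured, 15 fell and 1 rose (Chrnd, an acetylcholine receptor subunit, by 0.30), with a median of -1.85 against -1.99 in unstressed wounds. Myh3, the embryonic myosin heavy chain, stood at 2.09, 2.26, 2.05 and 2.06 at day 6 and at -3.71, -1.49, -1.41 and 0.47 at day 14. The groups did not overlap and Myh3 fell by 3.65 (SE 0.71, adjusted p = 0.00063). Myh8, the perinatal myosin, fell by 3.77, Tnnt2, a troponin of embryonic muscle, by 3.83, and Des, desmin, by 2.81, where its other probe set differed by 0.94. The myogenic transcription factors fell too, Myog by 2.81, Myod1 by 1.41 and Myf5 by 0.77, while Pax7, the marker of satellite cells, differed by -0.30 (adjusted p = 0.14). Ankrd1, a stretch-responsive ankyrin repeat protein of muscle, fell by 3.78 and by 3.84 in unstressed wounds. With the mean of all probe sets of a gene, the median of the list was -0.95.

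Defb8, a beta-defensin of epithelia, had the largest fall of all named genes. It stood at 3.96, 4.82, 2.64 and 6.96 at day 6 and at -0.68, -0.54, -0.58 and -0.40 at day 14. The day 14 values lay close together and below every day 6 value, and Defb8 fell by 5.14 (SE 0.59, adjusted p = 1.7e-05). In unstressed wounds it stood between -0.56 and 0.18 at day 6 and differed by -0.34 (adjusted p = 0.65). For Defb8 the difference between the courses was -4.81 (SE 0.83, adjusted p = 0.055), and with the Xist class as a term adjusted p = 0.029. It rests on 1 probe set.

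Immediate early genes, which are induced within minutes by growth factors, stress or stretch, fell almost as a group. Of 22 measured, 18 fell and 0 rose, with a median of -1.90. Fosb, a subunit of the AP-1 transcription factor, stood at 2.72, 1.15, 3.48 and 3.27 at day 6 and at -1.28, -2.25, -1.33 and -2.27 at day 14. The groups did not overlap, and the lowest day 6 value was that of replicate 2. Fosb fell by 4.44 (SE 1.14, adjusted p = 0.0042). The zinc finger factors Klf6 and Klf4 fell by 2.64 and 2.02, the orphan receptor Nr4a2 by 2.75, Btg2 by 1.99 and Ier2 by 1.88. Fos, Egr1 and Atf3, chosen after their values were seen, fell by 2.81, 2.14 and 3.51. In unstressed wounds 7 members fell and the median was -0.56. There Fosb differed by -0.50 (adjusted p = 0.72), with values as far apart as 3.15, 4.18, -2.93 and 0.04 at day 6, and Egr1 by 0.34 (adjusted p = 0.64). The list medians of the unstressed day 6 arrays were 0.78, 1.25, -0.39 and -0.11, against 0.41 to 0.98 on the stressed arrays of day 6. The difference between the courses passed for no member of the list over all arrays, and for none over the low-Xist arrays. These genes also respond to the handling of tissue at harvest, which was not recorded.

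**Figure D3:**
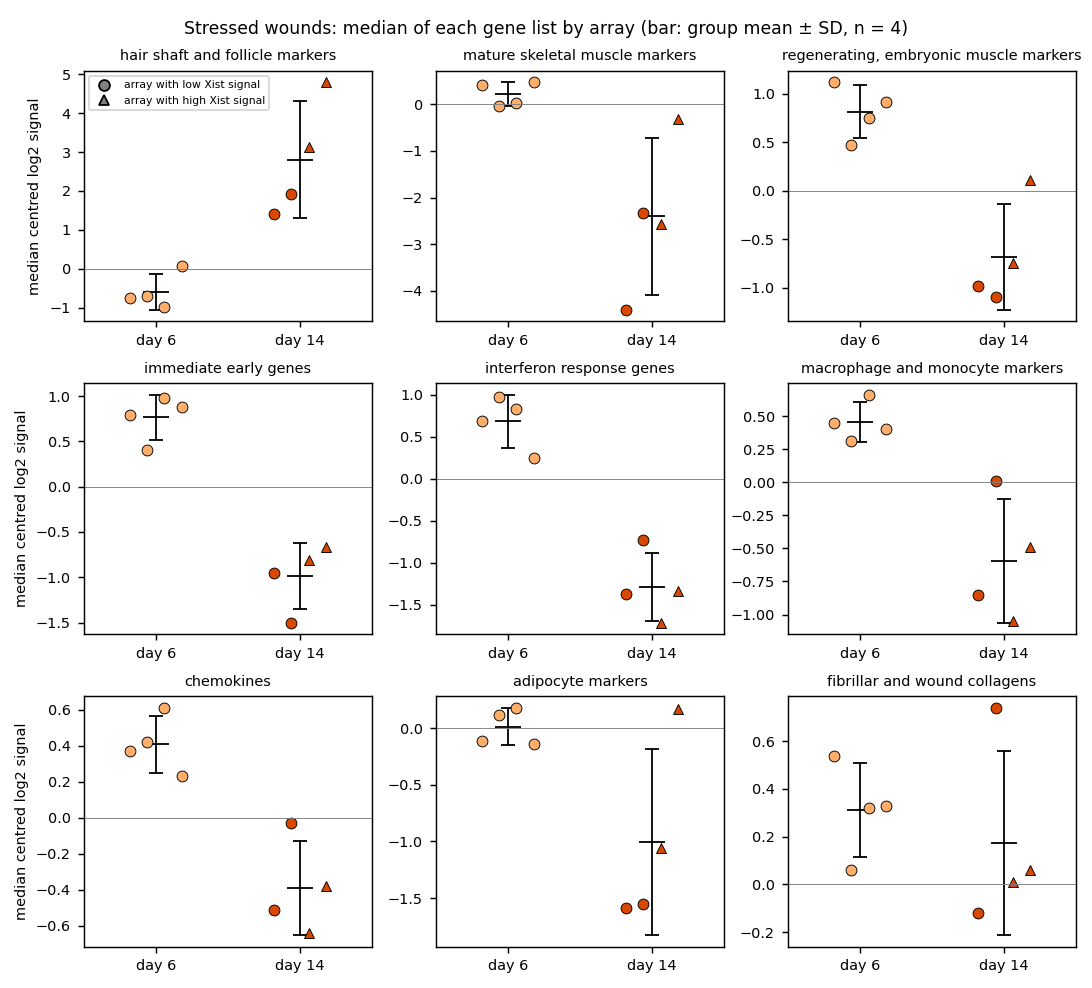
Median centred log2 signal of 9 gene lists on each of the 8 stressed arrays, with the group mean ± SD (n = 4) of these medians; triangles are arrays with high Xist signal. The medians of immediate early and interferon response genes lie lower on every day 14 array, from -1.50 to -0.67 and from -1.71 to -0.73, whereas those of the collagens, -0.12 to 0.74, overlap the day 6 arrays.

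The interferon response was lower at day 14. Of 21 measured genes 18 fell, 17 of them at least 2-fold, and 0 rose, with a median of -1.92. Ifit1, whose promoter with 2 response elements is shown above, stood at 0.96, 1.76, 1.27 and 0.23 at day 6 and at -2.64, -1.26, -2.48 and -1.75 at day 14. No array of one day reached the range of the other, and Ifit1 fell by 3.09 (SE 0.40, adjusted p = 3.9e-05). Usp18, a protease that restrains interferon signalling, fell by 2.54 (SE 0.25, adjusted p = 4.9e-06), and the GTPases Gbp2, Iigp1 and Gbp3 differed by -2.47, -2.27 and -1.92, all past the threshold. Irf7, the transcription factor of the response, chosen after its values were seen, fell by 2.27. All 21 genes had their probe sets in 1 direction. Unstressed wounds had a median of -1.95 for this list, and the medians with the low-Xist and the high-Xist arrays of day 14 were -1.61 and -2.10.

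Chemokines, which recruit leukocytes, fell in 18 of 32 measured genes and rose in 2, with a median of -0.97. In all 62.5% were called, near the 58.3% of all genes, of which 34.3% fell. Cxcl10, an interferon-induced chemokine for T cells, stood at 0.84, 0.37, 1.50 and 0.73 at day 6 and at -1.55, -1.52, -1.86 and -1.49 at day 14. The groups were far apart, and Cxcl10 fell by 2.46 (SE 0.32, adjusted p = 3.6e-05). The monocyte chemokine Ccl2 had 1.37, 0.88, 2.32 and 1.19 at day 6 and -0.45, 0.36, -0.69 and -1.43 at day 14, without overlap, and fell by 1.99 (SE 0.46, adjusted p = 0.0021). Ccl3 fell by 1.89 and the platelet chemokine Ppbp by 1.43. The neutrophil chemokines Cxcl1 and Cxcl2, chosen after their values were seen, fell by 2.59 and 2.63, although for Cxcl1 the other probe sets differed by 0.07 to 0.33 and the low-Xist arrays gave -1.85 (adjusted p = 0.072). The 2 that rose were Ccl28, a mucosal chemokine of epithelia (0.81), and Cxcl15 (0.61). The list median in unstressed wounds was -0.90.

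Among cytokines and their receptors 17 of 31 fell and 3 rose (Csf3, Il24 and Osmr), with a median of -0.62. That is 64.5% called, against 58.3% of all genes. Il6, an inflammatory cytokine chosen after its values were seen, stood at 0.55, 1.21, 3.57 and 2.39 at day 6 and at -1.47, 0.15, -0.89 and -1.11 at day 14, and fell by 2.76 (adjusted p = 0.0011). The day 6 values spread widely but lay above every day 14 value. Il10ra, the receptor for interleukin 10, fell by 2.07, Tslp, an epithelial cytokine, by 2.15, Il34, a ligand of the macrophage receptor Csf1r, by 1.53 and Lif by 0.87. Csf3, the neutrophil growth factor, rose by 0.78. For Il10ra the other probe sets differed by 0.04 to 0.61. Tnf, the cytokine tumour necrosis factor, differed by 0.24 (adjusted p = 0.087).

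Of 24 macrophage and monocyte markers, 18 fell and 1 rose, Marco, a scavenger receptor (1.27), with a median of -1.07. Fcgr1, a high-affinity antibody receptor of macrophages, stood at 0.83, 0.77, 1.19 and 0.51 at day 6 and between -2.37 and -0.55 at day 14, without overlap. Fcgr1 fell by 2.60 (SE 0.32, adjusted p = 2.8e-05), and day 14 replicate 2 was the highest of its group, as it was for Aif1 (-0.43), which fell by 1.75. Cd14 fell by 1.57, Adgre1, the F4/80 antigen, by 1.04, Csf1r by 0.83 and Chil3, a chitinase-like protein, by 2.31, although Chil3 did not pass with the low-Xist arrays of day 14 (-1.89, adjusted p = 0.15). Mrc1 differed by -0.25 (adjusted p = 0.58) and Arg1 by -0.37 (adjusted p = 0.73), both markers of repair macrophages. The unstressed median was -1.89, with 18 lower and 2 higher. The difference between the courses passed for no marker over all arrays; for Aif1 it was 1.61 (adjusted p = 0.099). Over the 12 low-Xist arrays it passed for 6 of the 24, 5 higher and 1 lower, where 2.86% of all genes were higher and 4.93% lower. With the Xist class as a term it passed for 1, which was lower, beside 0.0989% of all genes lower.

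Of 14 neutrophil markers, 5 rose and 2 fell, and their median was 0.49. The share called was 50.0%, against 58.3% of all genes. The genes that rose were Ltf, lactoferrin (0.99), Ngp (0.99), Camp, cathelicidin (0.90), Mpo, myeloperoxidase (0.78), and the chemokine receptor Cxcr2 (0.83), which did not pass with the high-Xist arrays of day 14 (0.53). Other granule genes did not pass, Elane at 0.19 (adjusted p = 0.29), Lcn2 at -0.11 (adjusted p = 0.91) and Mmp8 at -0.22 (adjusted p = 0.59). The genes that fell were Mmp9 (-1.41) and Clec4d (-1.06). S100a8, a calcium-binding protein of neutrophils and wound keratinocytes, had -1.51, 0.43, 0.39 and -1.40 at day 6 and 1.93, 1.82, -0.74 and -0.76 at day 14. Its groups overlapped and the value of 1.08 did not pass (adjusted p = 0.23), whereas the low-Xist arrays of day 14 gave 2.40 (adjusted p = 0.012). The list median was 0.47 with the low-Xist arrays of day 14 and turned to -0.18 with the high-Xist arrays. In unstressed wounds it was -0.45, with 3 higher and 5 lower. The genes that rose under load lay above 0 there as well: Mpo at 0.72, Ngp at 0.64, Ltf at 0.47, Camp at 0.30 and Cxcr2 at 0.05.

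Markers of other leukocytes moved in both directions. For T and NK cells 3 of 18 rose and 6 fell (median -0.36): Cd4 rose by 1.22 while Cd3g, a chain of the T cell receptor complex, fell by 1.70, and the NK receptor Klrd1 by 1.17. For B and plasma cells 5 of 11 rose and 2 fell (median 0.33, turning to -0.03 with the Xist class as a term), with Fcrla at 0.77 and Pax5 at 0.78, whose other probe set differed by -0.22 and whose mean did not pass (0.28). Ighm fell by 1.86, but only 2 of its 11 probe sets lay in this direction, and their mean differed by 0.23. For mast cells 1 of 11 rose, Kit (0.72), and 4 fell (median -0.61), among them Tpsb2 (-1.01) and Hdc (-1.21), both lost in the mean of all probe sets, where Kit did not pass either (0.40, adjusted p = 0.18) and 0 of the 11 rose and 1 fell. Hdc also did not pass with the Xist class as a term (-0.97), and without day 14 replicate 2 Tpsb2 gave -0.69 (adjusted p = 0.074). For dendritic and Langerhans cells 3 of 14 rose and 7 fell (median -0.76): the transcription factor Zbtb46 rose by 0.94 and the growth factor receptor Flt3 by 0.73, whereas H2-Aa, a class II antigen-presenting chain, fell by 1.86 and Itgax by 0.91, which did not pass with the low-Xist arrays of day 14 (-0.53). Of the dendritic and Langerhans markers, 4 rose and 2 fell with the low-Xist arrays of day 14. With the Xist class as a term 3 of them rose and 1 fell. Over all stressed arrays 1 of the 14 was lower without overlap, beside 29.1% of all genes. The shares called for these 4 lists were 50.0%, 63.6%, 45.5% and 71.4% in the order given, against 58.3% of all genes. For red blood cell markers 1 of 4 rose, Epb42 (0.75), 0 fell and the median was 0.03, with Hba-a1 at -0.02 (adjusted p = 0.91).

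Most structural matrix genes did not pass in the loaded course over all arrays. Of 23 collagens 5 fell and 1 rose, 26.1% in all against 58.3% of all genes, and the median was -0.24. With the Xist class as a term 5 rose and 3 fell (median -0.09), and with the low-Xist arrays of day 14 4 rose and 5 fell (median -0.00). In unstressed wounds 17 fell, 0 rose and the median was -1.17. Col3a1, the fibrillar collagen of early granulation tissue, stood at 0.32, -0.02, 0.39 and 0.49 at day 6 and at 0.84, 0.82, 0.61 and 0.42 at day 14. The groups overlapped and the value of 0.38 did not pass (adjusted p = 0.34), but Col3a1 passed with the Xist class as a term (0.83, adjusted p = 0.02) and with the low-Xist arrays of day 14 (0.53, adjusted p = 0.031). The unstressed value was -2.19, with a difference between the courses of 2.56 (adjusted p = 0.072).

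The chains of type I collagen, the main collagen of scar, gave mixed probe sets. Col1a1 fell by 2.27 (SE 0.46, adjusted p = 0.00088), from 0.27, 1.48, 0.40 and 0.15 to -3.02, -1.97, -0.51 and -1.28, but its other probe set differed by 0.02. Col1a2 fell by 1.76, its other probe sets differed by -0.04 and 0.05, and their mean did not pass (-0.58, adjusted p = 0.13). A direction for type I collagen is therefore open to the choice of probe set. Col8a2, a collagen of basement membranes, fell by 2.05, but by array its groups overlapped, and the high-Xist arrays of day 14 gave -0.85 (adjusted p = 0.14). Col2a1, a cartilage collagen, rose by 0.99.

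Among enzymes of collagen processing and crosslinking 1 of 20 rose and 3 fell (median -0.16, against -0.89 in unstressed wounds). Pcolce2, an enhancer of procollagen cleavage, stood at 0.05, 1.04, 0.62 and 0.74 at day 6 and at -3.72, -3.05, -3.19 and -2.13 at day 14. The groups lay far apart and it fell by 3.63 (SE 0.58, adjusted p = 0.00017), beside -0.05 in unstressed wounds. Its difference between the courses was -3.59 (adjusted p = 0.17). Loxl3, a lysyl oxidase, fell by 1.34 with overlapping groups and did not pass with the low-Xist arrays of day 14 (-1.15), and Lox, which crosslinks collagen, differed by 0.94 (adjusted p = 0.075).

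Matricellular and provisional matrix genes had a median of -0.35, with 1 of 23 higher and 4 lower. Comp, which binds collagen fibrils, stood at 0.73, 0.61, 0.86 and 1.16 at day 6 and at -0.01, 0.01, 0.05 and 0.14 at day 14, and fell by 0.80 (SE 0.14, adjusted p = 0.00039). The day 14 arrays were nearly equal and below every day 6 array, and the unstressed value was -0.06. Sparc, a collagen-binding glycoprotein, rose by 1.11, but its 2 other probe sets differed by -0.07 and 0.03. The matricellular signal Ccn1 fell by 2.35 with all 4 probe sets in 1 direction and overlapping groups, and did not pass over the 12 low-Xist arrays (-1.46, adjusted p = 0.16) or with the Xist class as a term (-1.87, adjusted p = 0.052). Tnc, tenascin C, differed by -0.04 (adjusted p = 0.93) beside -2.02 in unstressed wounds, and Fn1, fibronectin, by 0.14.

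For elastic fibre and proteoglycan genes 1 of 23 rose and 5 fell (median -0.06). Tnxb, tenascin X, fell by 2.16 and Fmod, fibromodulin, by 2.20, with all 6 probe sets of Fmod below 0. Fbln1, fibulin 1, rose by 1.13 on its most variable probe set, while the others differed by -1.19 and -0.88 and the mean of all by -0.31. Among matrix proteases and inhibitors 3 of 28 rose and 7 fell (median -0.57). Mmp13, an interstitial collagenase, stood at 1.31, 0.61, 1.11 and 1.34 at day 6 and at -2.35, -0.05, -2.47 and -3.62 at day 14, without overlap, and fell by 3.21 (SE 0.53, adjusted p = 0.0002). Timp3, an inhibitor of metalloproteases, rose by 1.75 and the protease Adamts9 by 1.42, but neither passed in the mean of its probe sets (0.48 and 0.16).

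Of 15 fibroblast markers, 1 rose and 5 fell, Pdgfrb (-1.05) and Thy1 (-0.69) among them, and the median was -0.61. Both calls were lost in several alternatives, Thy1 without day 14 replicate 1 (-0.40) among them. Of 20 myofibroblast and smooth muscle markers, 10 fell and 0 rose, with a median of -1.10, and the values of all 20 lay below 0. Tpm1, tropomyosin, fell by 2.62, Mylk, myosin light chain kinase, by 2.04, Cnn1, calponin, by 1.59 and Itga7 by 1.45. Several of these genes, Des and Tpm1 among them, are also expressed in skeletal muscle, whose markers fell as given above, and the part of that fall in this list was not tested. Acta2, smooth muscle actin, stood at 0.25, 0.23, 0.18 and 0.48 at day 6 and at -1.88, 0.60, -1.25 and -0.61 at day 14. Replicate 2 of day 14 lay above the day 6 range and the value of -1.07 did not pass (adjusted p = 0.058), while it passed without that array (-1.53, adjusted p = 0.006). Of 22 endothelial markers, 5 fell and 1 rose (median -0.41): the receptor Tek fell by 1.09 and Vwf by 1.51, the lymphatic factor Prox1 rose by 0.66 (0.37 and not past the threshold with the high-Xist arrays of day 14), and Pecam1 differed by 0.16 (adjusted p = 0.81).

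Adipocyte genes were lower at day 14 of loaded wounds. Of 19 measured, 13 fell and 1 rose, with a median of -1.09, beside 2 lower, 5 higher and a median of 0.56 in unstressed wounds. The share called was 73.7%, against 58.3% of all genes. By array, the list median was -0.14 to 0.18 at day 6 and -1.59, -1.55, -1.06 and 0.17 at day 14. In 6 of the 19 the groups did not overlap and fell, beside 29.1% of all genes. With only the high-Xist arrays of day 14, 6 fell and 1 rose (median -0.67). Adipoq, adiponectin, chosen after its values were seen, stood at -0.13, 0.57, 0.62 and -0.02 at day 6 and at -5.39, -4.44, -1.22 and 0.25 at day 14. Adipoq fell by 2.96 (adjusted p = 0.012), the 2 low-Xist arrays were the lowest, and with only the high-Xist arrays of day 14 it did not pass (-0.75, adjusted p = 0.15). Thrsp, a regulator of fat synthesis chosen likewise, fell by 3.10, or with only the high-Xist arrays gave -1.63 (adjusted p = 0.071). The lipid droplet protein Cidea fell by 2.44, while Dgat2, which makes triglycerides, fell by 1.71 (SE 0.16, adjusted p = 4.8e-06). Both also lay lower at day 14 in unstressed wounds, Cidea by -2.68 and Dgat2 by -1.04. Each is on the sebaceous gland list as well. Acaca rose by 0.91, but its other probe set lay in the other direction and their mean differed by -0.04. The difference between the courses passed for 0 members over all arrays. Over the 12 low-Xist arrays, 2 of them in each day 14 group, it passed for 13 of 19, all lower, where 4.93% of all genes were lower. For sebaceous gland markers 1 of 10 rose, Mc5r (0.82), and 6 fell, with a median of -1.12, and Far2, which makes wax alcohols, fell by 2.01.

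Cholesterol synthesis genes fell in 10 of 17 and rose in 0, and the values of all 17 lay below 0 (median -0.65). The share called, 58.8%, is near the 58.3% of all genes, where 34.3% fell and 24.0% rose. Fdft1, squalene synthase, stood at 0.38, 0.43, 0.10 and 0.05 at day 6 and at -1.96, -2.63, -2.66 and -1.84 at day 14. The arrays of each day lay close together and the gene fell by 2.51 (SE 0.22, adjusted p = 2.6e-06), with 2 of its 4 probe sets in this direction. Mvd fell by 1.66, Lss by 1.67, Insig1 by 1.50 and Dhcr7 by 1.09. The unstressed median was -0.92, with 13 lower.

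Of 28 suprabasal and cornified markers, 14 fell and 2 rose (median -1.02, against -1.64 in unstressed wounds). The share called was 57.1%, near the 58.3% of all genes. Alox12b, a lipoxygenase of the skin barrier, stood at 0.71, 0.60, 0.32 and -0.04 at day 6 and at -2.72, -2.73, -2.32 and -3.86 at day 14, and fell by 3.31. Krt77, a keratin of sweat ducts and suprabasal skin, fell by 3.63 (adjusted p = 0.00016) beside -0.40 in unstressed wounds, and Lce1m, a late cornified envelope protein, fell by 3.80 beside -1.54. The protease Klk5 fell by 2.47 and Sbsn by 2.41, whereas the main suprabasal keratins Krt1 (-0.40) and Krt10 (-0.66) did not pass. Tchh, which is also a follicle gene, and Dsc1 rose.

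In basal keratinocytes 1 of 13 rose and 5 fell (median -0.34): Krt15, a keratin of follicle stem cells, by 1.65, Dst by 1.61, the hemidesmosome integrin Itgb4 by 1.20 and the laminin chain Lamb3 by 1.18. Itgb4 and Lamb3 did not pass after quantile normalization, and Krt5 (0.07) and Krt14 (-0.34) did not pass. Of 15 wound-edge markers, 0 rose and 2 fell, the epidermal growth factor family members Ereg (-1.68) and Hbegf (-1.66). Their median was -0.22 in loaded wounds, where Krt16, a keratin of migrating epidermis, had 0.26, 0.46, -1.07 and -4.00 on the arrays of day 14 and did not pass (-1.47, adjusted p = 0.18), whereas the high-Xist arrays gave -2.92 (adjusted p = 0.009). In unstressed wounds 8 fell, 1 rose and the median was -1.40. The loaded median was 0.15 with the low-Xist arrays of day 14 and -1.15 with the high-Xist arrays.

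In the TGF-beta and BMP pathway, whose ligands drive matrix synthesis through paired receptors, 6 of 27 genes rose and 8 fell (median -0.05). The share called was 51.9%, against 58.3% of all genes, of which 24.0% rose and 34.3% fell, so the counts are no result about the list. The members that fell were ligands and secreted antagonists: Inhba (-0.97), Gdf10 (-1.50), Fst (-1.14), Bmp2, Bmp7 and the 3 TGF-beta isoforms Tgfb1 (-1.57), Tgfb2 (-1.07) and Tgfb3 (-1.01). The members that rose were receptors and a signal transducer, Tgfbr3 (2.14), Tgfbr1 (0.90), Tgfbr2 (1.35), Bmpr1a, Bmpr2 (0.85) and Smad3. This order by role was seen after the values, as were the TGF-beta genes chosen. Probe sets disagreed for Tgfb1, whose other probe set differed by 0.54, for Inhba (0.64), for Tgfbr1 (-0.33 to 0.80) and for Bmpr2; Inhba (-0.17) and Bmpr2 (0.08) did not pass in the mean of their probe sets. Tgfb2 did not pass with the low-Xist arrays of day 14 (-0.49, adjusted p = 0.11), and with the high-Xist arrays Tgfbr2 (0.55, adjusted p = 0.2) and Tgfbr1 (0.66) did not. In the Wnt pathway, which acts in follicle growth, 9 of 29 rose and 6 fell (median 0.16), with 51.7% called. Wnt7a rose by 1.33, Wnt10b by 0.71, Wnt6 by 0.69 and the Wnt agonist Rspo3 by 0.86, whereas Wnt10a fell by 0.85. Neither Wnt6 (0.22) nor Rspo3 (0.08) passed in the mean of its probe sets, and their other probe sets differed by -0.25 and -0.70.

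Integrins and focal adhesion proteins, which couple matrix to the cytoskeleton, fell in 12 of 27 genes and rose in 5 (median -0.58). Their share called was 63.0%, against 58.3% of all genes. Pdlim7, an actin-associated scaffold, fell by 2.73 (SE 0.34, adjusted p = 3.2e-05), from 0.62 to 1.09 at day 6 to -2.60, -1.83, -2.55 and -0.54 at day 14. The adaptor Bcar1 fell by 1.25, the leukocyte integrin Itga4 by 1.38 and talin, Tln1, by 1.17. Of 35 cell cycle genes 6 rose and 6 fell (median -0.33). The count rested on the Xist class: 4 rose and 13 fell with the low-Xist arrays of day 14, and 6 rose and 2 fell with the class as a term, where the median turned to 0.15. The difference between the courses passed for 10 of the 35, all lower, over the 12 low-Xist arrays, where 4.93% of all genes were lower. Over all arrays it passed for 0. Tpx2, a spindle protein, rose by 1.63, but its other probe sets differed by -0.52 to 1.36, and Cdc6 fell by 1.04. Mki67, the marker of cycling cells, stood at -0.01 to 0.09 at day 6 and at -1.04, -1.20, -0.20 and 0.23 at day 14, and its value of -0.61 did not pass (adjusted p = 0.33), whereas the low-Xist arrays gave -1.18 (adjusted p = 2.8e-05).

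Genes of the respiratory chain fell in 16 of 28 and rose in 3 (median -0.49), led by the complex I subunits Ndufa5 (-1.55) and Ndufv1 (-1.46). Glycolysis and hypoxia genes fell in 7 of 23 and rose in 3 (median -0.48): Aldoa fell by 1.56 and Hk2 by 1.21, while Vegfa, the vessel growth factor, rose by 0.57, a call lost in the mean of its probe sets (0.30, adjusted p = 0.067) and with the high-Xist arrays of day 14 (0.36, adjusted p = 0.12). ER chaperones and genes of the unfolded protein response rose in 6 of 24 and fell in 8 (median -0.14), with 58.3% called, as over all genes. The rises of Pdia4 (1.18) and Hspa5 (0.90) were lost in the mean of their probe sets, and Creld2 fell by 1.29. In the circadian clock 4 of 18 rose and 9 fell (median -0.56). The activator genes Npas2 (-1.55), Clock (-1.19) and Arntl (-1.23) fell, and the repressor genes Per2 (1.15) and Per3 (0.99) rose while Per1 fell by 1.44. Nr1d2 (0.95) and Bhlhe41 (0.45) rose too, whereas Rora (-1.85), Nfil3 (-1.40), Hlf (-1.32), Nr1d1 (-1.09) and Bhlhe40 (-0.65) fell. Nfil3 and Nr1d1 are repressor genes as well, so the repressor genes moved in both directions. Cry1 (0.25) and Cry2 (-0.30) did not pass. Arntl did not pass with the high-Xist arrays of day 14 (-0.59), and Per3 did not without day 14 replicate 4 (0.86). The hour of harvest is not given in the sources used here. Ribosomal proteins, the control list, rose in 2 of 14 and fell in 5 (median -0.10), with Rpl27 at -0.73. Schwann cell markers rose in 2 of 9 and fell in 2 (median -0.03): Sox10 rose by 0.62 and Cnp fell by 1.83.

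The loaded and the unloaded course had most of their calls in common. In unstressed wounds 10005 genes changed (55.0%, with 23.1% higher and 31.8% lower), and 3311 genes were higher in both courses, which is 75.9% of those higher in loaded and 78.6% of those higher in unloaded wounds. For the lower genes the shared count was 4632 (74.2% and 79.9%). Arrays of both courses carry the same split by day in the labelling controls. The test of the difference between the courses passed for 7 genes (0.0385%), 4 higher (0.022%) and 3 lower (0.0165%) in the loaded course, at an unadjusted p under 0.05 for 1833. With the Xist class as a term it passed for 52 genes (0.286%, with 0.187% higher and 0.0989% lower). With only the 12 low-Xist arrays, 2 of them in each day 14 group, it passed for 1418 (7.79%). Without stressed day 14 replicate 4 it passed for 191 and without unstressed day 14 replicate 3 for 61.

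**Figure D4:**
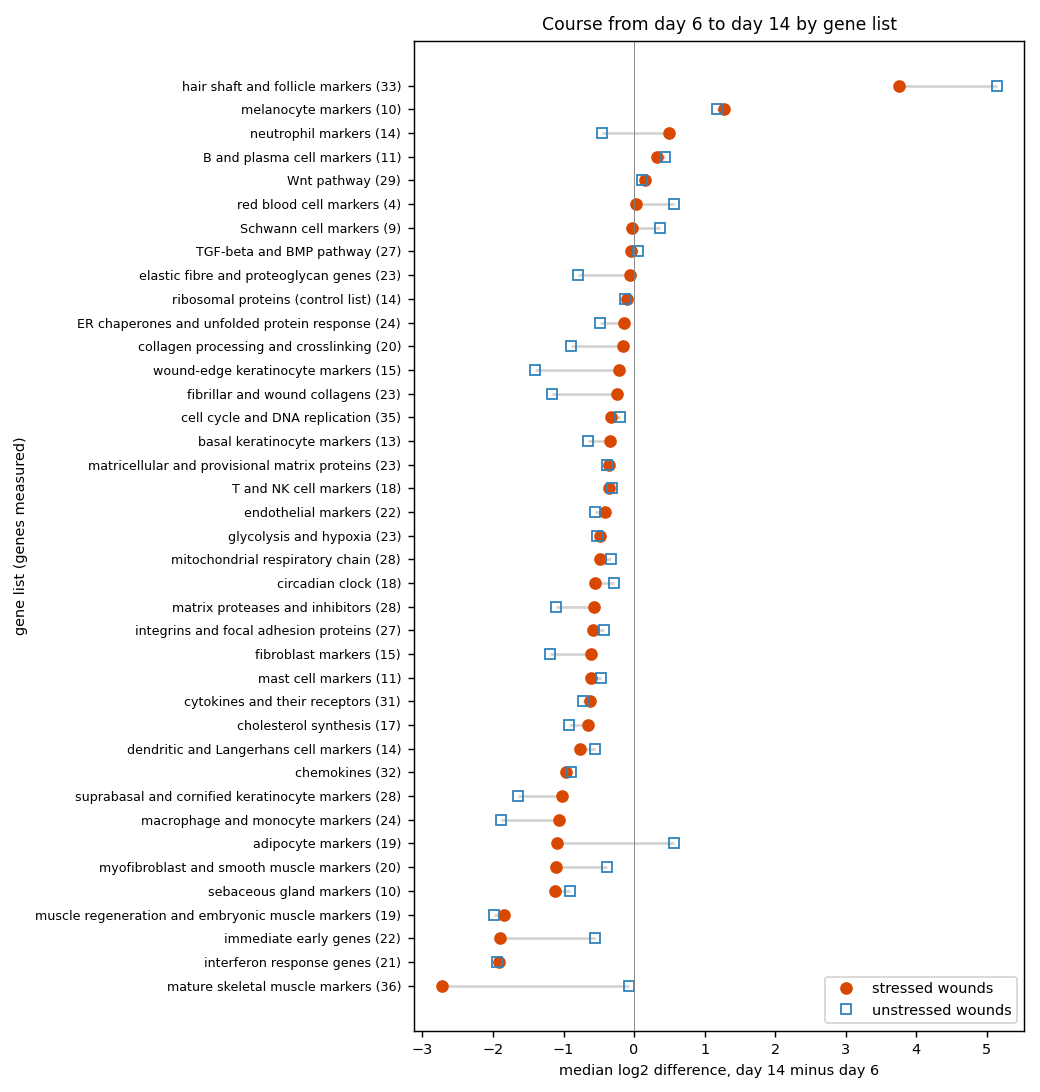
Median log2 difference, day 14 minus day 6, of each of 39 gene lists in stressed wounds (filled circles) and unstressed wounds (open squares), with the number of genes measured in brackets. Hair shaft markers lie at 3.75 and 5.14, mature muscle markers at -2.73 and -0.07, and adipocyte markers at -1.09 and 0.56.

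The 4 genes higher in the loaded course were 3 of the matrix and a protease. Cthrc1, a secreted protein of activated fibroblasts, stood at 0.46, -0.41, 0.31 and 0.97 at day 6 and at 0.73, 1.40, 0.51 and 0.52 at day 14 of loaded wounds. In unstressed wounds it went from -0.73, -0.50, -0.91 and -0.14 to -3.81, -4.18, -4.80 and -5.06. The loaded arrays of both days overlapped, with a difference of 0.46 (adjusted p = 0.22) that passed with the Xist class as a term (0.83, adjusted p = 0.023), whereas the unloaded arrays fell by 3.89. The difference between the courses was 4.35 (SE 0.44, adjusted p = 0.00099). It passed in 24 of 25 alternatives, where it ranged from 2.58 to 4.57, and after quantile normalization adjusted p = 0.064.

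Postn, periostin, a matricellular protein of scar, differed by 0.11 (adjusted p = 0.62) in loaded wounds and fell by 1.50 in unloaded wounds, a difference of 1.61 (SE 0.26, adjusted p = 0.046). Col5a2, a chain of the collagen that nucleates type I fibrils, had 0.51, 0.06, 0.36 and 0.62 at day 6 and 0.92, 0.80, 0.67 and 0.16 at day 14 of loaded wounds. It overlapped there at 0.25 (adjusted p = 0.46), or 0.62 (adjusted p = 0.036) with the Xist class as a term, but fell by 2.22 in unloaded wounds, a difference of 2.47 (SE 0.40, adjusted p = 0.046). Ctss, the cathepsin of macrophages, fell in both, by 0.70 under load, which did not pass with the Xist class as a term (-0.59) or without any 1 of 4 stressed arrays (-0.68 to -0.63), and by 2.87 without load, a difference of 2.16 (SE 0.35, adjusted p = 0.046).

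The other 3 genes were lower in the loaded course. Apobec2, a muscle protein of the deaminase family, fell by 2.49 under load, from -0.00 to 0.32 at day 6 to -3.53, -2.64, -2.56 and -0.63 at day 14, and rose by 2.29 without load. The difference was -4.78 (SE 0.69, adjusted p = 0.029), and the other probe set of Apobec2 differed by 0.72 in loaded wounds. Timp4, an inhibitor of metalloproteases, fell by 1.29 and rose by 2.42 without load, a difference of -3.71 (SE 0.61, adjusted p = 0.046), and its fall under load did not pass without day 6 replicate 2 (-0.85), with the high-Xist arrays of day 14 (-1.13) or after quantile normalization (-0.79). Prkg2, a protein kinase activated by cyclic GMP, fell by 2.37, with all 3 probe sets below 0, and rose by 0.94 without load, a difference of -3.31 (SE 0.46, adjusted p = 0.024). Of 25 alternatives the difference passed in 18 for Prkg2, 11 for Apobec2, 9 for Postn, 8 each for Col5a2 and Ctss, and 7 for Timp4.

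**Figure D5:**
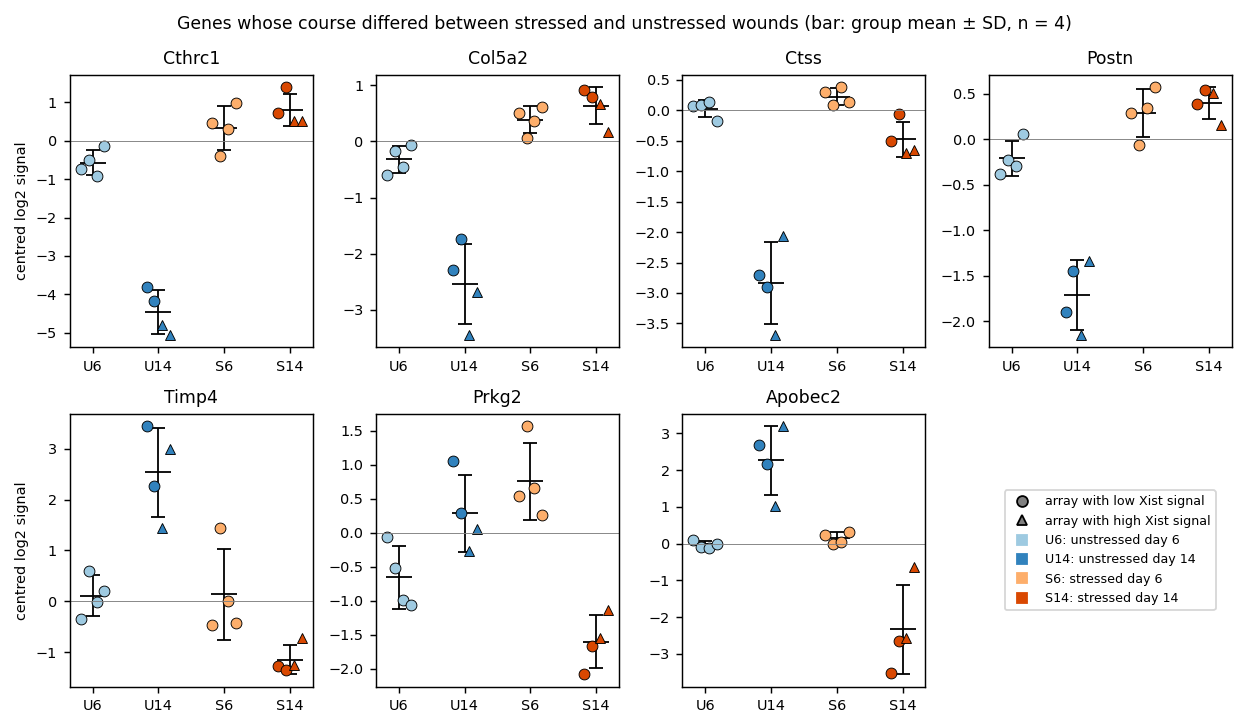
Centred log2 signal of the 7 genes whose course differed between stressed and unstressed wounds, on each of the 16 arrays, with the group mean ± SD (n = 4); triangles are arrays with high Xist signal. Cthrc1 lies between -5.06 and -3.81 on the unstressed arrays of day 14 and between -0.91 and 1.40 on the other 12 arrays.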

How the data were processed

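The authors deposited 1 value per probe set and array from Affymetrix scans, made in GeneSpring GX 11.0 per the labels; which background correction and normalization they used is not given in the sources used here. These deposited log values are read as log2. A single probe set spans up to 10.08 across arrays, more than the 4.82 possible for log10 of a scanner's range, and natural logs remain possible. Values are read as centred per probe set: 23271 probe sets (51.6%) hold an equal and opposite pair of arrays (within 2e-06). In 9731 (21.6%) such a pair is of a day 6 and a day 14 array, as a reference common to both days gives. How the probe sets without a pair were centred was not tested. A reference common to both days cancels in differences. Signal over background could not be judged, and the number of arrays limits the precision.

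In the platform's annotation 34958 of 45101 probe sets had 1 gene symbol, 932 several and 9211 none. For each of 18194 genes the probe set of widest interquartile range was kept, which favours probe sets that change; 9012 genes had more than 1. R 4.3.3 and its package limma 3.58.1 gave the tests: lmFit on the 4 group means of all 16 arrays, then eBayes, two-sided, with Benjamini-Hochberg adjustment over all genes. Further software was Python 3.11.15 with matplotlib 3.10.9, pandas 2.3.3, scipy 1.17.1 and numpy 2.4.6. On simulated data holding 100 genes with a log2 change of 1 and 100 with one of 2, the loaded comparison recovered 71% and 98%. It made 6 false calls over 18194 genes there. Far fewer genes changed in that simulation than the 10604 called in the loaded wound, and the adjustment depends on that number. The percentages hold for the simulated data only, and recovery in the wounds was not estimated. Same-numbered stressed arrays of both days had correlated deviations of 0.031, -0.023, -0.18 and 0.12, so the numbers were not taken as pairs. P-values set each difference against the spread between arrays within groups, pooled over the 4 groups and moderated across genes by eBayes. Alternatives changed the arrays, the scaling, the Xist class, the weights, the probe set rule and the block.

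The comparison, the 39 gene lists and the motifs were chosen with earlier results of these data known, and the interferon, cyclic AMP and hair TATAAA searches after the list values were seen. Named by rule were the 12 largest rises and 12 largest falls whose groups did not overlap, up to 5 members per list with the smallest p-values, the genes of the difference between courses, Acta2, Col1a1, Col3a1, Ccl2, Mki67, Cthrc1 and defining cell type markers, with clones, Xist and Y-linked genes skipped among the largest changes and differences. All other named genes were chosen after their values were seen.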

Additional observations from a re-analysis of the deposited data

Results flagged for a closer look

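The course of 7 genes differed between stressed and unstressed wounds by the test of that difference. On the log2 scale the differences were 4.35 for Cthrc1, 2.47 for Col5a2, 2.16 for Ctss and 1.61 for Postn, which were higher in the loaded course, and -4.78 for Apobec2, -3.71 for Timp4 and -3.31 for Prkg2, which were lower.

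Single arrays stood far from the other 3 of their group in 18 of 450 groups checked by Dixon's criterion, which chance meets in about 1 in 20. At day 6 these were replicate 2 for Ccl3 (-1.27) and Vegfa (-0.47), replicate 1 for Klf6 (0.33), and replicate 4 for Flt3 (0.20), Fmod (1.70), Krt16 (-0.18) and Krtap4-1 (-0.50). At day 14 they were replicate 3 for Cxcl10 (-1.86), Epb42 (0.92) and Kit (0.18), and replicate 4 for Ckmt2 (-1.25), Timp4 (-0.72) and Tpm1 (-1.31). Among list medians they were, at day 6, collagen processing in replicate 2 (0.17), ER chaperones in replicate 1 (0.10) and T and NK cell markers in replicate 1 (-0.04), and, at day 14, fibroblast markers (0.37) and T and NK cell markers (0.16) in replicate 2.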

How the results depend on the processing

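The count of genes changed in loaded wounds lay between 9187 and 10841 when 1 array was left out, and that of unstressed wounds between 8570 and 10206. The count for the difference between the courses was less stable: 52 with the Xist class as a term, 1418 with the low-Xist arrays, 569 with array weights, 21 above the median interquartile range, 11 with array medians set to 0, 4 after quantile normalization, 4 with the replicate block, 3 with every probe set on its own, 3 with trend and robust, 1 with the mean of all probe sets, and 1 to 191 when 1 array was left out. The replicate block gave 10346 calls in loaded wounds. The settings with the stressed low-Xist or high-Xist arrays and with medians set to 0 were chosen after seeing the data.

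List medians moved by more than the spread between arrays as follows; the cause was not tested. With the Xist class as a term they were -0.28 for proteases, 0.15 for cell cycle, -0.29 for clock, -0.27 for fibroblast, -0.03 for B cell, -0.42 for dendritic, -0.41 for suprabasal and -0.44 for red cell markers. With the low-Xist arrays they were -0.28 for proteases, -0.21 for TGF-beta, -0.08 for glycolysis, -0.36 for fibroblast and -0.12 for T and NK genes. With the high-Xist arrays of day 14 they were -0.38 for ER, -1.49 for immediate early, -0.18 for neutrophil and -1.15 for wound-edge genes. Quantile normalization gave 0.14 for TGF-beta, -0.31 for respiratory, -0.22 for clock and -0.00 for ribosomal genes, and array weights -0.15 for TGF-beta and 0.20 for Schwann cell genes. The mean of all probe sets gave -0.21 for integrins and -0.95 for regenerating muscle. Above the median interquartile range, where fewer genes were tested, the medians were -0.68 for TGF-beta, 0.44 for Wnt, -0.93 for cytokines, -0.89 for respiratory, -0.46 for ER, -1.07 for cholesterol, -1.19 for clock, 1.08 for ribosomal, -0.11 for neutrophil, 0.77 for B cell, -0.83 for basal and -0.86 for Schwann cell genes. Leaving out 1 array gave -0.33 to -0.10 for ER, -0.16 to 0.23 for Schwann cell and -0.82 to -0.34 for clock genes. The mean of all probe sets turned Fbln1 to -0.31, Ighm to 0.23 and Acaca to -0.04. Of named genes, 66 lost and 13 gained a call in at least 1 setting.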
